A study of Rattus norvegicus with 19 samples.

Results

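The genes described here are 8 genes of neuropeptide signalling in the amygdala, 7 peptide precursors and 1 receptor, of 32883 gene IDs in the deposited table, and they were chosen by name as the corticotropin-releasing hormone (CRH) system and the peptides that mark amygdala neurons. They are Crh (ENSRNOG00000012703), its receptor Crhr1 (ENSRNOG00000004900), Sst (ENSRNOG00000001837), Npy (ENSRNOG00000046449), Penk (ENSRNOG00000008943), Pdyn (ENSRNOG00000026036), Cck (ENSRNOG00000019321) and Vip (ENSRNOG00000018808). The symbols are those that the member list gives for the IDs. Neither the deposited table nor the RefSeq gene table used here pairs Ensembl IDs with symbols, so no annotation was at hand that could contradict a pairing, and no ID was dropped. All 8 passed the filter on low counts, which left 15372 IDs for the tests.

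RNA was measured in 19 female Wistar rats on a chow diet, each the offspring of a father of 1 of 4 kinds. There were 5 daughters of ELS-HFD fathers (early life stress, which the series describes as maternal separation, together with a high-fat diet), 5 of ELS fathers (early life stress alone), 4 of HFD fathers (high-fat diet alone) and 5 of control fathers. The daughters were tested on an elevated plus maze, a test of anxiety-like behaviour, on postnatal day 57 ± 1, and the sources used here do not say at what age tissue was taken, what the diet held or which daughters shared a litter. The sample labels name the tissue as brain and the material as lysate of whole tissue, the series text names the amygdala, and it speaks of male rats where each sample is labelled female.

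Corticotropin-releasing hormone is the peptide with which the brain starts the hormonal response to stress, and within the amygdala it is made mainly by neurons of the central nucleus and acts through the CRHR1 receptor. The central nucleus also holds many neurons that make enkephalin (from Penk), dynorphin (from Pdyn) and somatostatin (Sst). Neuropeptide Y (Npy) is found in a subset of somatostatin neurons. Cholecystokinin (Cck) and vasoactive intestinal peptide (Vip) mark separate classes of inhibitory interneurons in the cortex and the basolateral amygdala, and Cck is also made by excitatory neurons there. The level of such a gene in a tissue sample therefore depends on which nuclei were sampled as well as on the RNA in each cell, and in bulk tissue fewer cells of a type and less RNA per cell cannot be told apart.

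Among the RefSeq promoter windows (250 bases before the annotated start to 50 after it, build GRCr8), 5 of the 8 genes were found, namely Crhr1, Sst, Npy, Pdyn and Vip. Somatostatin is the textbook example of a gene controlled through the cAMP response element, whose letters are TGACGTCA, read the same on both strands. Sst was the 1 gene of these 5 whose window held the whole element, which 1.83% of 33469 windows of the same length hold. In the Sst window the element began 2 bases after the annotated start, not before it. The shorter core TGACG, read as CGTCA from the other strand, was in the windows of Sst (inside the whole element, once on each strand) and Vip, and 21.2% of windows hold it on either strand. No match was found in the Crhr1, Npy and Pdyn windows, which says only that these letters are absent from them. The windows of Sst and Vip, which hold the letters, and of Npy, the most variable of the 8 genes, are given below from 250 bases before the start to 30 after it, 5′ to 3′, with matches in capitals.
Sst (chr11:90461296-90461575, + strand): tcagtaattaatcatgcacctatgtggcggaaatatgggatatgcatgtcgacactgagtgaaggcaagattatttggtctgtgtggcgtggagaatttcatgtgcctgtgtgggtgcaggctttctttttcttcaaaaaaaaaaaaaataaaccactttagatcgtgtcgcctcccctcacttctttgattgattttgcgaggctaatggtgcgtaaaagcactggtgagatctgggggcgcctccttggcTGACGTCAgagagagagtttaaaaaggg
Vip (chr1:44470230-44470509, + strand): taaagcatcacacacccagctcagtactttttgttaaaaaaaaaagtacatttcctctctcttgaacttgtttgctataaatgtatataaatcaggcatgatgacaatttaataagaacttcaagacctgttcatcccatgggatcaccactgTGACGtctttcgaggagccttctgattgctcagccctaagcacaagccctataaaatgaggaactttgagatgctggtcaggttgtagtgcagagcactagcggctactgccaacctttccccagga
Npy (chr4:80211861-80212140, + strand): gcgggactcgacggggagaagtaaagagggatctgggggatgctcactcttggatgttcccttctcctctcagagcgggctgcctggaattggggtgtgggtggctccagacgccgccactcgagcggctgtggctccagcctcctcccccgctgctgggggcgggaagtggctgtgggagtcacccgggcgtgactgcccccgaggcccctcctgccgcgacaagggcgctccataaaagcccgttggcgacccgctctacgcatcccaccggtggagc

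Library totals ran from 7034837 to 20266594 counts. On the first principal component of all tested IDs (32.9% of the variance) 3 libraries stood apart, HFD replicate 1 with a score of 113.7 and ELS-HFD replicates 2 and 3 with 49.23 and 47.82. The other 16 scored between -29.02 and 10.59. In HFD replicate 1 the top 10 IDs held 25.83% of all counts, against 8.997% to 16.74% elsewhere. The lists of marker genes, peptide receptors, other amygdala peptides and peptide-processing genes could not be matched to IDs, so the tissue label was not checked against markers of its cell types.

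None of the 8 genes differed between groups at an adjusted p under 0.05 in any of 8 contrasts. Differences were tested with edgeR's quasi-likelihood fit over all 15372 IDs, in which 0 IDs (0%) were called in each contrast and 382 to 3739 had an unadjusted p under 0.05. With limma-voom 0 IDs were called in each contrast, and with DESeq2 between 0 and 306. In the 64 pairs of a gene and a contrast the smallest adjusted p was 0.147, for Cck in daughters of fathers on the high-fat diet. The standard errors of the log2 fold changes between 2 groups ran from 0.162 to 0.941, and the widest in each contrast was that of Npy. What follows gives each gene's level in every library in CPM (counts per 1000000 of the library total) and its order across the 4 groups. Gaps between neighbouring means in that order are set beside the pooled SD within groups. The first and last means lay farther apart than that SD for each gene but Crh. Contrasts with an unadjusted p under 0.05 are given beside the share of all IDs that reached the same unadjusted p.

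**Figure D1:**
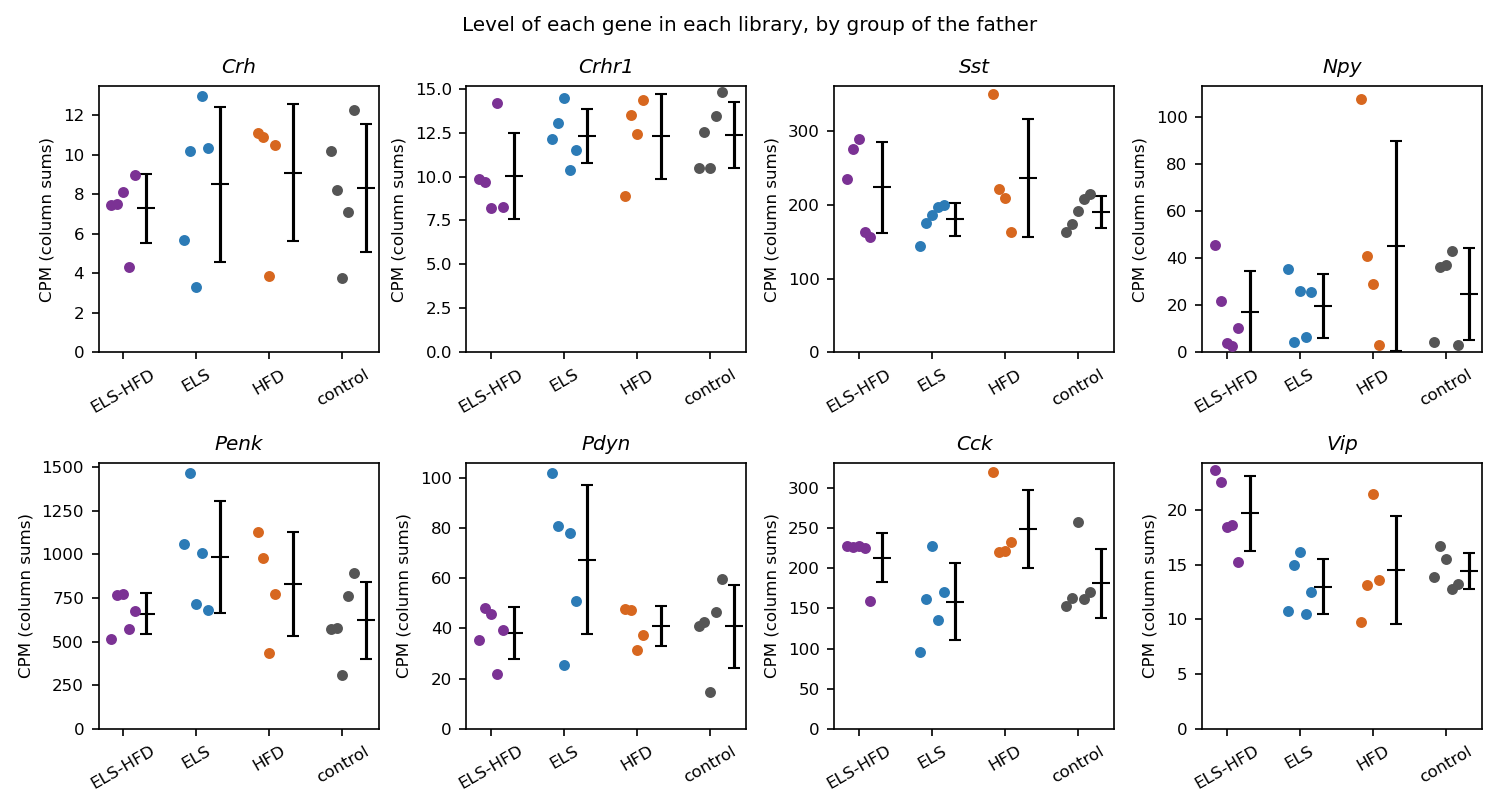
Level of each of the 8 genes in CPM of the library total (vertical axes, from 0), with 1 point per library and, beside the points, the group mean ± SD. Groups stand from left to right as ELS-HFD, ELS, HFD and control (n = 5, 5, 4 and 5); the points of every gene overlap between groups, and Npy spans 2.87 to 107.7 CPM.

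Crh, the ligand of the system, was a low-count gene with 44 to 207 counts in a library. Crh was at 7.46, 7.53, 8.13, 4.34 and 8.99 CPM in the ELS-HFD libraries and at 5.68, 10.2, 3.33, 13 and 10.3 CPM in the ELS libraries. It was at 11.1, 10.9, 3.89 and 10.5 CPM in the HFD libraries, against 10.2, 8.25, 3.75, 7.13 and 12.3 CPM in the control libraries. In each of the 4 groups 1 library stood below the others, namely ELS-HFD replicate 4, ELS replicate 3, HFD replicate 3 and control replicate 3, and these 4 libraries lay between 3.33 and 4.34 CPM. For ELS replicate 3, which had 44 counts, the exact Poisson interval at 95% was 2.42 to 4.47 CPM, and for the highest library, ELS replicate 4 with 159 counts, it was 11.07 to 15.2 CPM. These intervals cover counting error only, and they do not overlap. Crh averaged 7.29 ± 1.76 CPM in ELS-HFD (SD, n = 5), 8.51 ± 3.91 CPM in ELS (SD, n = 5), 9.11 ± 3.49 CPM in HFD (SD, n = 4) and 8.33 ± 3.22 CPM in control libraries (SD, n = 5). The order of means was HFD, ELS, control and ELS-HFD, and each neighbour in that order differed by less than the pooled SD within groups, which was 3.18 CPM. The log2 fold changes were -0.19 ± 0.37 (SE) for ELS-HFD against control, -0.01 ± 0.36 for ELS against control and 0.27 ± 0.38 for HFD against control, with edgeR adjusted p of 0.916, 0.995 and 0.827. The first was -0.06 without ELS-HFD replicate 4, and the last was 0.53 (adjusted p = 0.587) without HFD replicate 3.

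Crhr1 encodes the main receptor for CRH in the forebrain. Crhr1 was at 9.87, 9.67, 8.19, 14.2 and 8.29 CPM in the ELS-HFD libraries and at 12.1, 13, 14.5, 10.4 and 11.5 CPM in the ELS libraries. It was at 8.86, 13.5, 12.4 and 14.4 CPM in the HFD libraries, against 10.5, 12.6, 10.5, 13.5 and 14.8 CPM in the control libraries. Of the ELS-HFD libraries 4 of 5 were below every ELS and every control library, and ELS-HFD replicate 4 was near the top of all libraries. Below every HFD library were 2 of 5. Neither against ELS nor against control did Crhr1 in ELS-HFD reach an unadjusted p under 0.05 (edgeR). Crhr1 averaged 10.04 ± 2.45 CPM in ELS-HFD (SD, n = 5), 12.3 ± 1.54 CPM in ELS (SD, n = 5), 12.3 ± 2.42 CPM in HFD (SD, n = 4) and 12.4 ± 1.88 CPM in control libraries (SD, n = 5). Means were in the order control, ELS, HFD and ELS-HFD. The first 3 differed from each other by at most 0.07 CPM, and ELS-HFD stood 2.25 CPM below HFD, which is more than the pooled SD of 2.09 CPM. Against HFD the log2 fold change in ELS-HFD was -0.38 ± 0.17 (SE), with an unadjusted p of 0.0412 and an adjusted p of 1 (edgeR). Of the 8 genes 1 reached an unadjusted p under 0.05 in that contrast, as did 3.38% of all IDs. The value was -0.55 without ELS-HFD replicate 4 and lay between that and -0.30 when any other library was left out. With library sizes from column sums alone, the scale of the CPM above, it was -0.29 with an unadjusted p of 0.127 (edgeR). Crhr1 was also lower where the first principal component was high, with r = -0.588 over 19 libraries, and r = -0.237 once the 3 libraries that stood apart were left out. That r is on CPM from column sums, and with the TMM scaling that the contrasts use it was -0.307. With the second principal component (18.8% of the variance) r was -0.476 on CPM, and -0.578 without those 3 libraries. With TMM scaling it was -0.601 over the 19 libraries. The part of either component in the difference was not tested.

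The correlation of the ligand with the receptor was weak, and at these counts it is no finding. Between Crh and Crhr1, r was -0.183 (rho -0.0544) on log2(CPM + 1) over the 19 libraries, and -0.286 after each group's mean was subtracted. The log2 ratio of Crh to Crhr1 averaged -0.474 ± 0.726 in ELS-HFD (SD, n = 5), -0.68 ± 0.953 in ELS (SD, n = 5), -0.528 ± 0.838 in HFD (SD, n = 4) and -0.663 ± 0.566 in control libraries (SD, n = 5). The differences from control were 0.189, -0.0177 and 0.135, with two-sided exact permutation p of 0.643, 0.968 and 0.794 and an adjusted p of 0.968 for each over 6 ratio tests. The smallest p these designs allow is 0.00794.

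Penk, the precursor of the enkephalins, had 5124 to 18602 counts in a library. Penk was at 515, 767, 774, 572 and 673 CPM in the ELS-HFD libraries and at 1057, 1468, 712, 1005 and 679 CPM in the ELS libraries. It was at 1126, 980.3, 437 and 770.1 CPM in the HFD libraries, against 570.5, 576, 310.3, 761 and 891 CPM in the control libraries. In 3 of 5 ELS libraries and 2 of 4 HFD libraries Penk was above every control library, while the 5 ELS-HFD libraries lay inside the control range. Penk averaged 660.4 ± 116 CPM in ELS-HFD (SD, n = 5), 984 ± 319 CPM in ELS (SD, n = 5), 828 ± 299 CPM in HFD (SD, n = 4) and 622 ± 220.0 CPM in control libraries (SD, n = 5). The order of means was ELS, HFD, ELS-HFD and control, and no neighbours in it differed by more than the pooled SD of 248 CPM. The log2 fold change of ELS against control was 0.63 ± 0.29 (SE), with an unadjusted p of 0.0449 and an adjusted p of 0.913 (edgeR). It lay between 0.42, without ELS replicate 2, and 0.80, without control replicate 5. Penk was the 1 of 8 genes at an unadjusted p under 0.05 for ELS against control, where 4.35% of all IDs were. HFD against control gave 0.57 ± 0.31 (adjusted p = 0.618) and ELS-HFD against control 0.09 ± 0.29 (adjusted p = 0.957).

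The interaction contrast asks whether the difference that goes with the father's diet is the same with and without his early life stress. For Penk the log2 difference was -0.54 ± 0.29 (SE) for ELS-HFD against ELS, and 0.57 ± 0.31 for HFD against control. The interaction was -1.11 ± 0.42, with an unadjusted p of 0.017 and an adjusted p of 0.969 (edgeR). It was -0.77 without HFD replicate 1 and -1.34 without HFD replicate 3. Penk was the 1 of 8 genes at an unadjusted p under 0.05 for the interaction, as were 5.13% of all IDs. For Pdyn the interaction was -0.92 ± 0.50 (unadjusted p = 0.0796, adjusted p = 0.999).

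Pdyn, the precursor of the dynorphins, was measured at 239 to 1433 counts. Pdyn was at 35.6, 48, 45.9, 21.8 and 39.5 CPM in the ELS-HFD libraries and at 102, 80.7, 25.3, 78 and 50.9 CPM in the ELS libraries. It was at 47.8, 47.4, 31.3 and 37.4 CPM in the HFD libraries, against 40.8, 42.6, 14.5, 46.5 and 59.8 CPM in the control libraries. ELS libraries held both the highest values of the series and, in replicate 3, a value below 4 of 5 control libraries. Pdyn averaged 38.2 ± 10.4 CPM in ELS-HFD (SD, n = 5), 67.3 ± 29.6 CPM in ELS (SD, n = 5), 41 ± 8.05 CPM in HFD (SD, n = 4) and 40.8 ± 16.5 CPM in control libraries (SD, n = 5). ELS was first in the order of means, 26.4 CPM above HFD, which exceeds the pooled SD of 18.7 CPM. HFD, control and ELS-HFD followed within 2.8 CPM of each other. ELS-HFD against ELS gave a log2 fold change of -0.78 ± 0.34 (SE), with an unadjusted p of 0.0355 and an adjusted p of 0.238 (edgeR). Leaving out ELS replicate 1 gave -0.59, and leaving out ELS replicate 3 gave -0.98. ELS against control gave 0.68 ± 0.34 (unadjusted p = 0.0615, adjusted p = 0.913). For ELS-HFD against ELS 19.8% of all IDs had an unadjusted p under 0.05, and so did 2 of the 8 genes, Pdyn and Vip.

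The opioid precursors varied together across animals. Between Penk and Pdyn, r was 0.819 (rho 0.802) over the 19 libraries, 0.79 after group means were subtracted, and 0.681 without the 2 libraries farthest from the median of Penk. The log2 ratio of Penk to Pdyn averaged 4.15 ± 0.331 in ELS-HFD (SD, n = 5), 3.96 ± 0.558 in ELS (SD, n = 5), 4.27 ± 0.327 in HFD (SD, n = 4) and 3.98 ± 0.267 in control libraries (SD, n = 5). Its differences from control were 0.164, -0.0222 and 0.291, with two-sided exact permutation p of 0.437, 0.944 and 0.254 and an adjusted p of 0.968 for each. The counts depend on gene length, which was not used, so the ratio compares libraries and not the 2 genes' levels.

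Sst, which encodes somatostatin, had 1643 to 4948 counts in a library. Sst was at 236, 275, 289.5, 163 and 157 CPM in the ELS-HFD libraries and at 144, 176, 186, 197 and 200.2 CPM in the ELS libraries. It was at 351, 222, 209.8 and 163 CPM in the HFD libraries, against 163, 173, 191, 207 and 215 CPM in the control libraries. HFD replicate 1 was highest, followed by ELS-HFD replicates 3 and 2, the same 3 libraries that stood apart on the first principal component. Sst averaged 224 ± 61.8 CPM in ELS-HFD (SD, n = 5), 180.5 ± 22.7 CPM in ELS (SD, n = 5), 236 ± 80.5 CPM in HFD (SD, n = 4) and 190.1 ± 22 CPM in control libraries (SD, n = 5). The order was HFD, ELS-HFD, control and ELS, with every neighbour within the pooled SD of 50.8 CPM. For paternal HFD averaged over early life the log2 fold change was 0.42 ± 0.17 (SE), with an unadjusted p of 0.022 and an adjusted p of 0.165 (edgeR). It was 0.23 without HFD replicate 1, and 0.08 (adjusted p = 0.834) without the 3 libraries that stood apart. Sst had r = 0.85 with the first principal component, and r = 0.436 without those 3 libraries. How far the component accounts for the difference was not tested.

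Npy, which encodes neuropeptide Y, was the most variable of the 8 genes. Npy was at 45.4, 21.9, 4.13, 2.87 and 10.3 CPM in the ELS-HFD libraries and at 35.4, 4.42, 25.9, 6.3 and 25.8 CPM in the ELS libraries. It was at 108, 40.9, 28.8 and 2.97 CPM in the HFD libraries, against 4.34, 36.1, 37, 43.1 and 3.03 CPM in the control libraries. The widest gap between neighbouring values, 1.25 on the log2 scale, was between HFD replicate 1 at 107.7 CPM and the other 18 libraries, of which the highest was at 45.4 CPM. A gap of 1.09 lay between the 8 libraries at or under 10.3 CPM and the 11 at or above 21.9 CPM, and it was picked out after the values were seen. Every group had libraries on both sides of it, with 3 of 5 ELS-HFD libraries, 2 of 5 ELS libraries, 1 of 4 HFD libraries and 2 of 5 control libraries below it. The lowest count was 30, in HFD replicate 4 (2.97 CPM, exact Poisson interval at 95% 2.01 to 4.24 CPM). The highest count was 1519, in HFD replicate 1 (102.4 to 113.3 CPM). Npy averaged 16.9 ± 17.6 CPM in ELS-HFD (SD, n = 5), 19.6 ± 13.6 CPM in ELS (SD, n = 5), 45.1 ± 44.6 CPM in HFD (SD, n = 4) and 24.7 ± 19.4 CPM in control libraries (SD, n = 5). The SD was between 69.3% and 104% of the mean in the 4 groups, against 11.4% to 46% for the other 7 genes. Means ran in the order HFD, control, ELS and ELS-HFD, each within the pooled SD of 25.1 CPM of its neighbour. The log2 fold changes from control were -0.54 ± 0.89 (SE) in ELS-HFD, -0.38 ± 0.88 in ELS and 1.12 ± 0.93 in HFD, with edgeR adjusted p of 0.9, 0.939 and 0.722.

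Npy and Sst had r = 0.363 over the 19 libraries, r = 0.117 without the 2 libraries farthest out on the first principal component, HFD replicate 1 and ELS-HFD replicate 2, and r = 0.373 when ELS-HFD replicate 3 was left out too. No |r| between Npy and another of the 8 genes was above that value of 0.363. Among all tested IDs the one most like Npy, by r on log2 CPM over 19 libraries, reached r = 0.785. That scale uses TMM, and on it the nearest of the other 7 genes was Sst at r = 0.418. Of the 15371 other IDs, 525 had a higher r with Npy than that.

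Cck, which encodes cholecystokinin, had 1353 to 4524 counts. Cck was at 228, 226, 228, 225 and 159 CPM in the ELS-HFD libraries and at 96, 162, 227, 136 and 171 CPM in the ELS libraries. It was at 321, 220.5, 221 and 233 CPM in the HFD libraries, against 153, 163, 258, 161 and 171 CPM in the control libraries. Each of the 4 HFD libraries was above 4 of 5 control libraries, and control replicate 3 was above 3 of 4 HFD libraries. Of the ELS-HFD libraries 4 lay close together, between 225.1 and 228.4 CPM. Cck averaged 213 ± 30.5 CPM in ELS-HFD (SD, n = 5), 158 ± 48.3 CPM in ELS (SD, n = 5), 249 ± 48.2 CPM in HFD (SD, n = 4) and 181 ± 43.3 CPM in control libraries (SD, n = 5). In the order HFD, ELS-HFD, control and ELS, no neighbours differed by more than the pooled SD of 42.8 CPM. HFD against control gave a log2 fold change of 0.60 ± 0.24 (SE), with an unadjusted p of 0.021 and an adjusted p of 0.616 (edgeR). Without HFD replicate 1 it was 0.33, and without control replicate 3 it was 0.77. Cck was the 1 gene of 8 at an unadjusted p under 0.05 for HFD against control, and 7.79% of all IDs were.

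A further contrast set the 9 daughters of HFD and ELS-HFD fathers against the other 10, with the effect of the father's diet averaged over his early life. For Cck the log2 fold change was 0.53 ± 0.165 (SE), with an unadjusted p of 0.00428 and an adjusted p of 0.147 (edgeR), and 0.0533 by DESeq2. The value was 0.41 without HFD replicate 1. It was 0.36 (edgeR adjusted p = 0.477) without the 3 libraries that stood apart. Cck had r = 0.627 with the first principal component (0.701 with TMM scaling), and r = 0.492 without those 3 libraries. The part of that component in the difference for Cck was not tested. Vip gave 0.37 ± 0.13 (unadjusted p = 0.011, adjusted p = 0.148). Thus 3 of 8 genes, Cck, Vip and Sst, had an unadjusted p under 0.05 in this contrast, all higher with paternal HFD, where 24.3% of all IDs had one. For paternal ELS averaged over diets none of the 8 genes did, against 2.49% of all IDs. The smallest p was that of Cck at 0.0859, with a log2 fold change of -0.30 ± 0.165 (adjusted p = 0.995), which was -0.15 without HFD replicate 1.

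Vip, which encodes vasoactive intestinal peptide, had 128 to 314 counts. Vip was at 23.6, 22.6, 18.4, 18.6 and 15.3 CPM in the ELS-HFD libraries and at 10.8, 15, 16.1, 10.5 and 12.5 CPM in the ELS libraries. It was at 9.79, 13.2, 21.4 and 13.6 CPM in the HFD libraries, against 13.9, 16.7, 15.5, 12.8 and 13.2 CPM in the control libraries. Of the 5 ELS-HFD libraries 4 were above every ELS and every control library, and ELS-HFD replicate 5 was inside both ranges. Vip averaged 19.7 ± 3.41 CPM in ELS-HFD (SD, n = 5), 13 ± 2.52 CPM in ELS (SD, n = 5), 14.5 ± 4.94 CPM in HFD (SD, n = 4) and 14.4 ± 1.64 CPM in control libraries (SD, n = 5). ELS-HFD was first in the order of means, 5.21 CPM above HFD, which is more than the pooled SD of 3.22 CPM. HFD, control and ELS followed, with neighbours within 1.44 CPM. The log2 fold change of ELS-HFD against ELS was 0.64 ± 0.18 (SE), with an unadjusted p of 0.00221 and an adjusted p of 0.206 (edgeR). Over the alternatives the adjusted p ran from 0.0227 to 0.417, and DESeq2 gave 0.0545. Without HFD replicate 1, which is in neither group but shares the estimate of the spread, the value was 0.66 and the adjusted p was 0.0227. In that setting 2405 of the IDs tested were called. Without ELS-HFD replicates 2 and 3 as well, the value was 0.60 with an adjusted p of 0.161.

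Against control, Vip in ELS-HFD gave a log2 fold change of 0.45 ± 0.18 (SE), with an unadjusted p of 0.021 and an adjusted p of 0.839 (edgeR). Leaving out 1 library gave 0.37 (ELS-HFD replicate 1) to 0.55 (ELS-HFD replicate 5). Vip was the 1 gene of 8 at an unadjusted p under 0.05 in that contrast, where 4.18% of all IDs were. HFD replicate 1, the library highest in Sst, Npy and Cck, was the lowest of all 19 in Vip at 9.79 CPM from column sums. With TMM scaling it was not the lowest. Its log2 CPM of Vip was then 3.68, above ELS replicates 1, 4 and 5 (3.37, 3.35 and 3.57) and control replicate 4 (3.675).

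**Figure D2:**
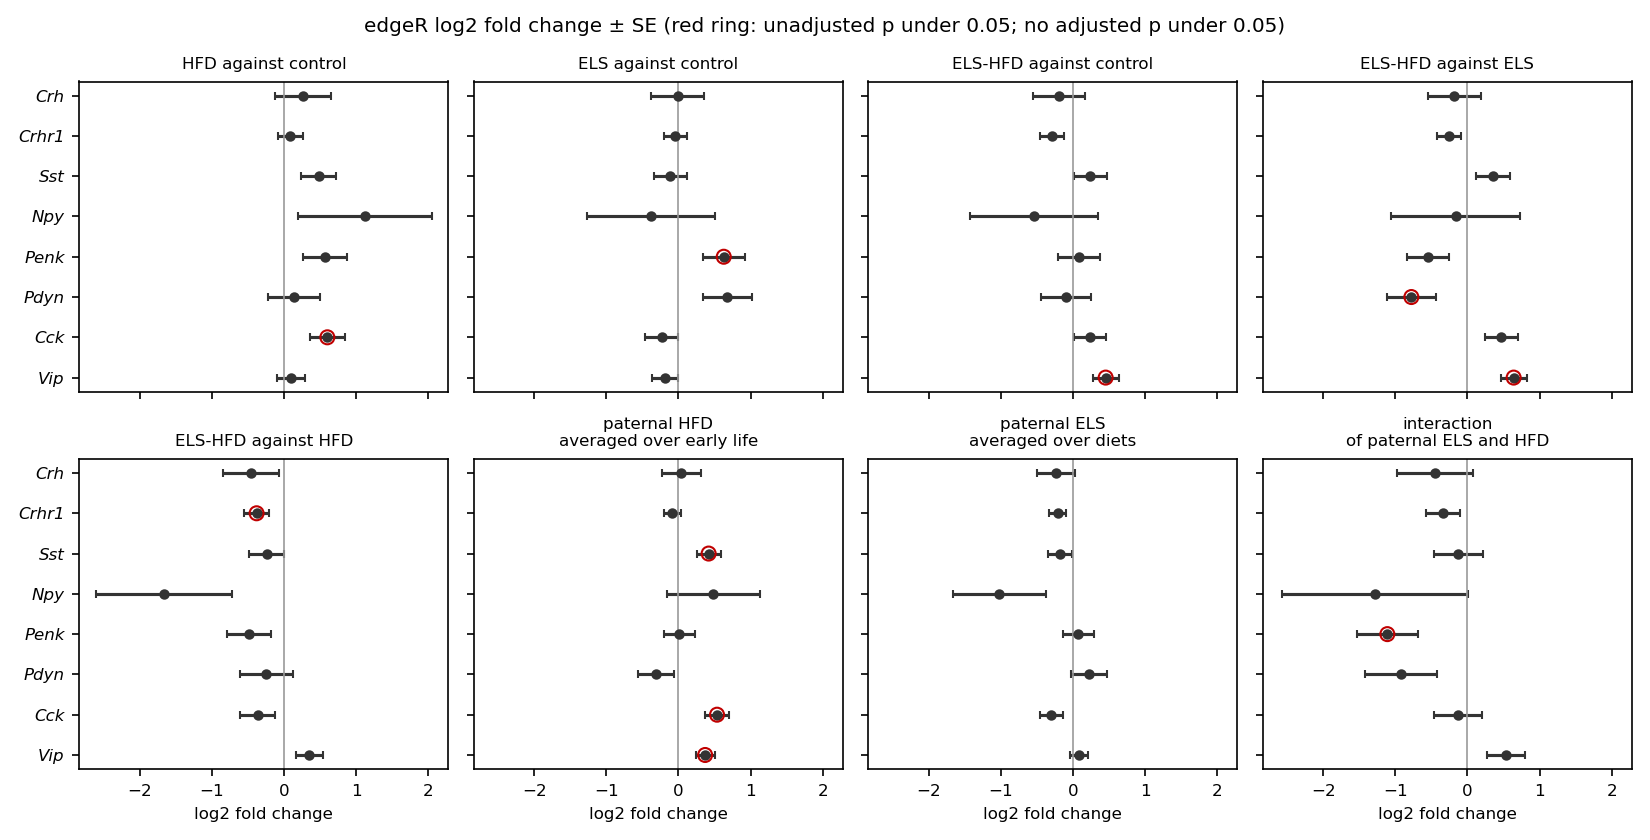
Log2 fold change ± SE of each gene (rows) in each of the 8 contrasts (panels), from edgeR over 15372 IDs. Red rings mark an unadjusted p under 0.05, of which there are 10 among 64 values; the bars of Npy are the widest in every panel.

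Read across the 8 genes, HFD against control had the most uniform direction, with 8 of 8 log2 fold changes above 0 and a median of 0.37, where 50.8% of all IDs were above 0 with a median of 0.01. The 8 include values as small as 0.09 ± 0.17 (Crhr1) and 0.10 ± 0.19 (Vip). With library sizes from column sums alone, which put the median of all IDs at -0.09, 7 of 8 were above 0 (Crhr1 at -0.01) and their median was 0.22. Without HFD replicate 1 it was 7 of 8 with a median of 0.11, and 7 of 8 also without HFD replicate 3 or control replicate 3. ELS-HFD against HFD, which shares the HFD libraries, had 1 of 8 above 0 and a median of -0.37, against 42.1% and -0.03 for all IDs. Without HFD replicate 1 it had 2 of 8 above 0 and a median of -0.11. In ELS against control 2 of 8 were above 0 (Penk and Pdyn), and in ELS-HFD against control 4 of 8 were.

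An ID with no symbol in the sources used here, ENSRNOG00000016275, separated the HFD libraries from the control libraries without overlap, at 0.694 to 2.55 CPM in the 4 HFD libraries against 319.2 to 4715 CPM in the 5 control libraries. It was singled out after its values were seen, and how many other IDs separate these 2 groups was not counted. In ELS it was at 0.909 to 7.24 CPM in 4 libraries and at 4672 CPM in replicate 5. In ELS-HFD it was at 0.753 and 5.08 CPM in replicates 1 and 4, and at 855, 821 and 11280 CPM in replicates 2, 3 and 5. Between HFD and control, the differences given above for the 8 genes and the difference that this ID marks cannot be told apart. ELS and ELS-HFD held both low and high libraries, so the other contrasts were not balanced for this ID either. Its part in them was not tested.

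**Figure D3:**
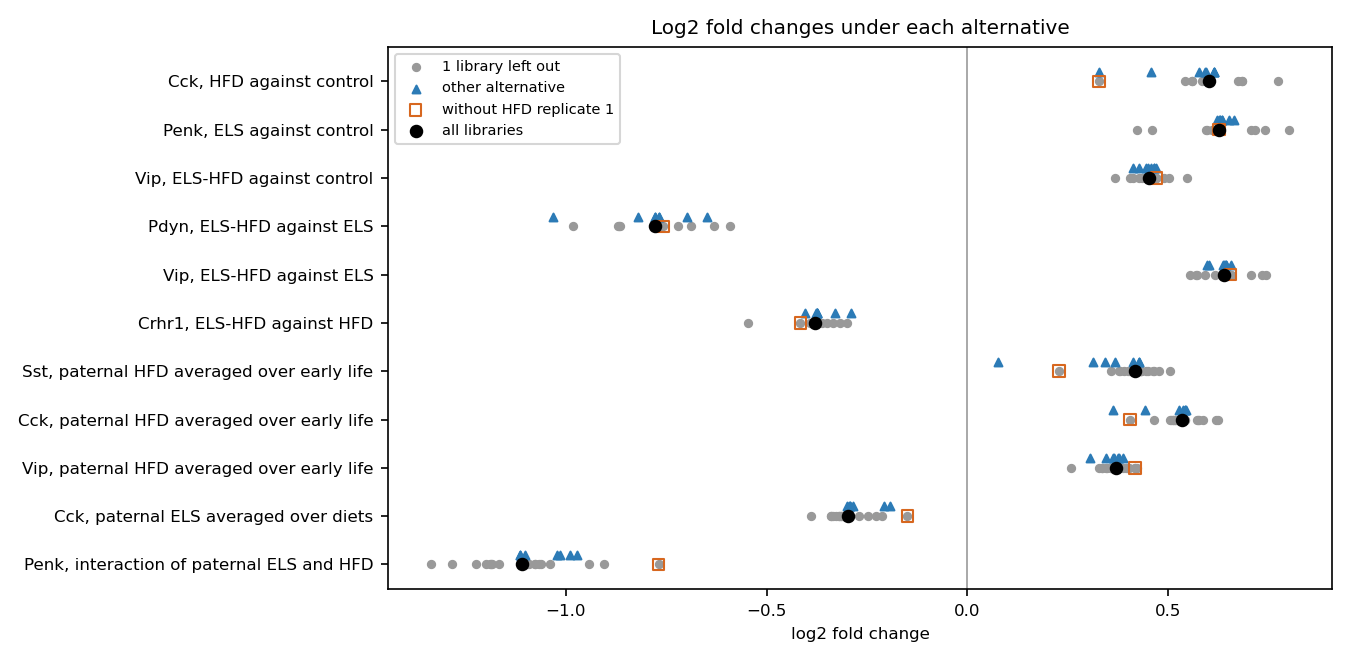
Log2 fold changes (horizontal axis) of the 11 gene and contrast pairs given in full, with all libraries (black), with each library left out in turn (grey), under the other alternatives (blue triangles) and without HFD replicate 1 (orange squares). Every value kept its sign, in pairs chosen by their p in these same data. Cck in HFD against control was 0.60 with all libraries and 0.33 without HFD replicate 1.

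Some pairs of the 8 genes also varied together, both over all libraries and after group means were subtracted. Of the 28 pairs among the 8 genes, 6 had an r of at least 0.5 in size over the 19 libraries, and 5 did with TMM scaling. How many pairs among all IDs reach that size was not computed, so the count is no finding about these genes. Crh went with Penk (r = 0.594, rho 0.56) and with Pdyn (r = 0.642, rho 0.586), and both were larger after group means were subtracted, at 0.679 and 0.726. Without the 2 libraries farthest from the median of Crh they were 0.539 and 0.441. Pdyn and Cck ran in opposite directions (r = -0.654, rho -0.512), at -0.663 after group means were subtracted and -0.823 without the 3 libraries that stood apart. Penk and Vip did so too (r = -0.539, rho -0.619). With TMM scaling both pairs were under 0.5 in size, at -0.47 for Pdyn with Cck and -0.464 for Penk with Vip, and Pdyn with Vip was at -0.511, against -0.478 on CPM. Sst and Cck went together (r = 0.63, rho 0.491), at 0.442 without the 3 libraries that stood apart. These values are descriptions of 19 libraries that share their preparation and differ in depth.

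**Figure D4:**
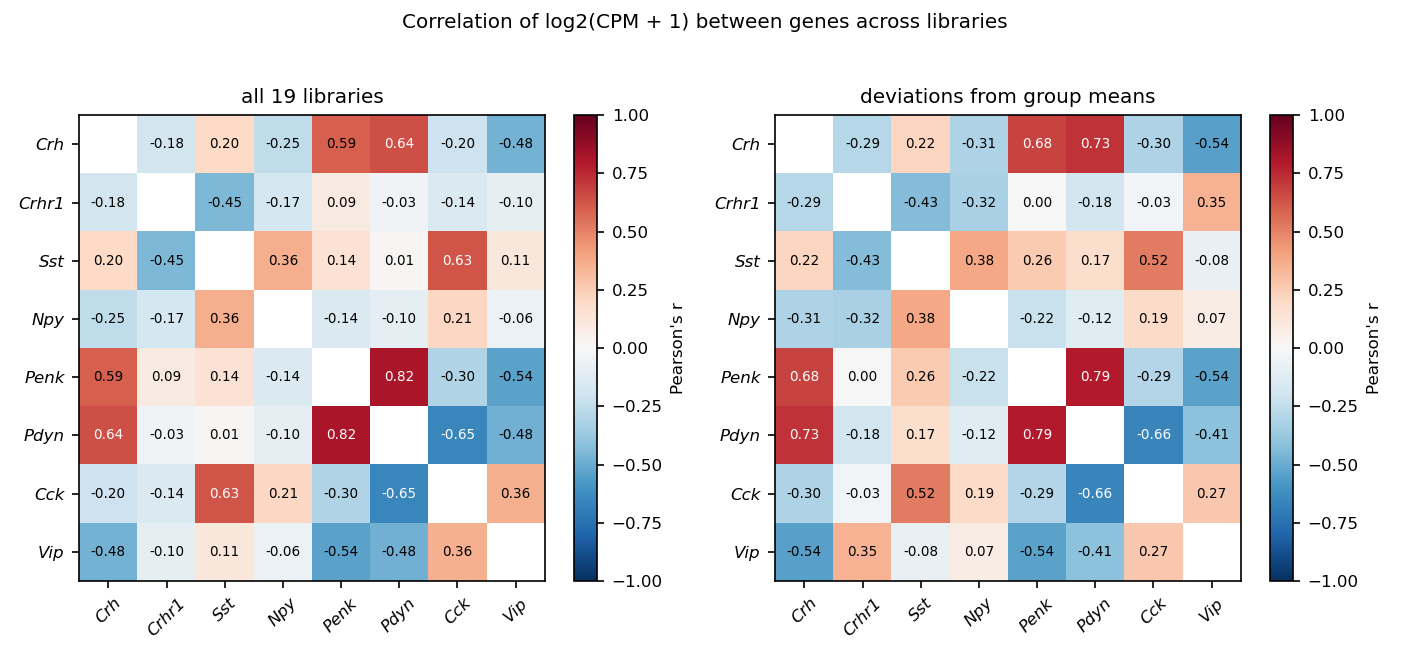
Pearson's r of log2(CPM + 1) between each pair of the 8 genes, over all 19 libraries (left) and after each group's mean was subtracted (right). Penk with Pdyn (0.819 and 0.79) and Crh with Pdyn (0.642 and 0.726) are positive in both panels, and Pdyn with Cck (-0.654 and -0.663) is negative in both.

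The libraries lowest in Crh were compared across the other genes, a choice made after their values were seen. In all 4 groups the library with the lowest Crh was also the one with the lowest Pdyn, at 21.8 CPM in ELS-HFD replicate 4, 25.3 in ELS replicate 3, 31.3 in HFD replicate 3 and 14.5 in control replicate 3. In Penk the same libraries were the lowest or second lowest of their group. In Cck they were the highest of their group in ELS and in control, and the second lowest in ELS-HFD and in HFD. ELS replicate 1 did not follow the pattern, with the highest Pdyn of the series at 101.7 CPM and a Crh of 5.68 CPM.

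**Figure D5:**
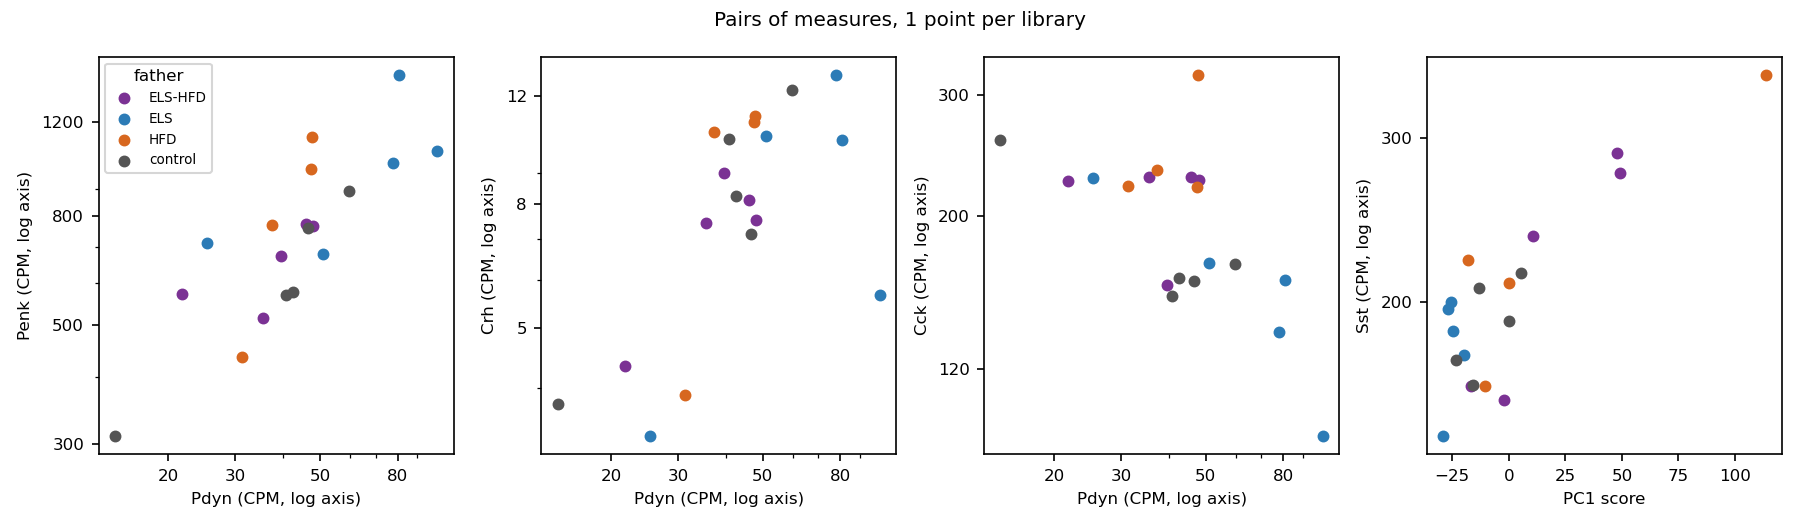
Penk, Crh and Cck against Pdyn (CPM, both axes log), and Sst (CPM, log axis) against the score on the first principal component, with 1 point per library coloured by group. The 4 libraries between 3.33 and 4.34 CPM of Crh lie at the lower left of the Crh panel with 14.5 to 31.3 CPM of Pdyn, and HFD replicate 1 lies alone at a score of 113.7 with 351 CPM of Sst.

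For each gene, some of the other 15371 tested IDs were more like it than the remaining 7 genes were. With so many IDs set against 7 genes, some closer ID is nearly certain, so this alone is no finding about the 8. On log2 CPM over 19 libraries, the ID most like Penk reached r = 0.93 and that most like Pdyn r = 0.902, and 19 and 16 IDs exceeded the r of the nearest of the 8 genes. For Crh the highest r was 0.826, with 36 such IDs. For Cck and Sst the highest r was 0.961 and 0.955, with 709 and 1516 such IDs. Vip reached 0.874 (653 IDs) and Crhr1 0.869 (5135 IDs). None of these most similar IDs was among the 8 genes, and none has a symbol in the sources used here.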

How the data were processed

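The deposited table holds raw, whole-number read counts for each Ensembl gene ID in 19 libraries, made from polyadenylated RNA (about 400 ng of RNA per library, per the labels' protocols). The submitters' processing notes name the build Rnor_6.0 and DESeq2. Aligner, annotation release, strand handling and treatment of reads with several matches: not given in the sources used here. Each column carries the number that its sample's description gives. CPM was computed from column sums. Tests used edgeR 4.0.16 (R 4.3.3) in 1 fit of all libraries with group as the only term, TMM scaling and the default expression filter (15372 of 32883 IDs, at least 99.9% of the counts of each library), with Benjamini-Hochberg adjustment over all IDs. SEs were taken as |log2 fold change| over √F. This procedure was first tested on simulated data. Principal components and likeness used log2 CPM with a prior count of 2. Ratios were compared by exact permutation. Alternatives used DESeq2 1.42.0, limma-voom 3.58.1, other scalings, no filter, a replicate block, fits to 2 groups and libraries left out.

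The genes, the lists and the tests were chosen with earlier results of these data known. Statistics were given in full for each gene and contrast with an unadjusted p under 0.05 and for the smallest p of each contrast. The lists of receptors, other peptides, processing genes and cell markers have no IDs paired with symbols and were not used. Litter, father and batch are not stated, so animals may be related, and the p-values cover the spread between these samples only. No 2 libraries of a group agreed within sampling noise (chi-square per degree of freedom at least 5.11).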

Additional observations from a re-analysis of the deposited data

Results flagged for a closer look

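Dixon's test for a single distant value was applied to log2(CPM + 1) in 32 sets (8 genes in 4 groups) and singled out 6 libraries' values. Chance alone gives about 1 in 20 sets, and the sets are not independent because the genes vary together. Crh was low in ELS-HFD replicate 4 (4.342 CPM) and in HFD replicate 3 (3.887 CPM). Pdyn was low in control replicate 3 (14.48 CPM). Cck was low in ELS-HFD replicate 5 (158.9 CPM) and high in HFD replicate 1 (320.8 CPM) and in control replicate 3 (258.0 CPM). HFD replicate 1 also stood apart on the first principal component. Without control replicate 3 the log2 fold change of Pdyn in ELS against control was 0.46 in place of 0.68, and without ELS-HFD replicate 5 that of Cck in ELS-HFD against control was 0.34 in place of 0.24.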

How the results depend on the processing

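Over all alternatives the 64 gene and contrast pairs gave 1704 values, of which 1 was called. That was Vip in ELS-HFD against ELS without HFD replicate 1, where 2405 of 15547 IDs were called. All 11 pairs given in full kept their sign under every alternative. They were chosen by their p in these same data, and many alternatives leave out a library of neither group compared. The kept sign is therefore no independent support. The number of IDs called, 0 in the edgeR fit to all libraries, was larger with DESeq2, at 5 for HFD against control, 1 for ELS against control, 151 for ELS-HFD against ELS, 3 for ELS-HFD against HFD, 306 for paternal HFD averaged over early life, 1 for paternal ELS averaged over diets and 5 for the interaction, and none of the 8 genes was among them. The fit to the 2 groups alone called 3 for HFD against control. With 1 library left out the calls ranged from 0 to 2405 for ELS-HFD against ELS (1 without ELS-HFD replicate 4), 0 to 2 for paternal HFD, 0 to 1 for paternal ELS and 0 to 12 for the interaction. The cause was not tested.

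Of the 6 ratio differences, all with an adjusted p of 0.968, 4 changed sign when a library was left out. These ranged from -0.236 to 0.123 for Penk over Pdyn in ELS, and for Crh over Crhr1 from -0.0155 to 0.498 in ELS-HFD, -0.269 to 0.342 in ELS and -0.151 to 0.518 in HFD. Penk over Pdyn stayed above 0 in ELS-HFD (0.0221 to 0.274) and in HFD (0.196 to 0.448). Without the 3 libraries that stood apart, a setting added for the ratios and correlations after the data were seen, Crh over Crhr1 was -0.00284 in ELS-HFD and -0.151 in HFD.

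Replicate numbers showed no pairing of the libraries. Of 27 same-numbered pairs in different groups 9 had deviations that correlated above 0.1, with a median r of -0.0486. Of 108 pairs with other numbers in different groups 36 did, with a median r of 0.00416. With the replicate number as a block edgeR called 0 IDs in each contrast, and Vip in ELS-HFD against ELS was 0.66 with an adjusted p of 0.207. Depth limits the low-count genes most, with as few as 30 counts for Npy and 44 for Crh in a library.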
